A study of Mus musculus with 6 samples.

Results

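Sonic hedgehog signalling reaches the cell through a small set of proteins, and 9 of the genes that encode them were described here: the receptors Ptch1 and Hhip with the signal transducer Smo, the coreceptors Cdon, Boc and Gas1, and the transcription factors Gli1, Gli2 and Gli3. These 9 rows were taken by gene name from a table of 46983 annotated features. The set was selected on measured values of this contrast: Gli1 was among the most consistently lower genes in the Qk-KO libraries, so the difference of these genes between Qk-KO and WT is given as a description, with errors and without p-values.

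The libraries were made from total RNA of oligodendrocytes, which wrap axons in myelin, taken directly from brains of FvB/C57BL6 hybrid mice with no culture step. One group of 3 libraries is labelled WT and the other, of 3 libraries, Qk-KO (genotype Qk-/-). The Qk-KO mice carried Plp-CreERT2, a tamoxifen-activated Cre recombinase under the promoter of a myelin protein gene, and both Qk alleles flanked by loxP sites. Both groups received tamoxifen at 8 weeks of age, and the brains were taken 4 days later, so recombination in Qk-KO is limited to cells in which the Plp promoter is active. Which of the Cre and loxP alleles the WT controls carried is not given in the sources used here. Qk encodes quaking, an RNA-binding protein of glia that acts in splicing and RNA stability.

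As background, a hedgehog ligand binds Ptch1 with the help of Cdon, Boc or Gas1, and this releases Smo from inhibition by Ptch1. Smo then acts through the primary cilium on the Gli proteins, of which Gli2 and Gli3 carry most of the initial response and Gli1 is both an activator and a transcriptional target. Ptch1 and Hhip are targets as well, and since both bind the ligand they limit the signal. In the adult forebrain Gli1 is known as a readout of hedgehog signalling in subsets of astrocytes and in neural stem cells, and hedgehog is known in development for its part in specifying oligodendrocyte precursors.

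The deposited values are log2 values after regularization, 1 for each gene in each library, with n = 3 libraries in each group, and every change is Qk-KO minus WT. The libraries differed in type. Ribosomal RNA features held 59.8% to 64.8% of the signal in the WT libraries and Qk-KO replicate 1 but 1.88% to 2.23% in Qk-KO replicates 2 and 3. Without these features the depth was about 8700000 to 13100000 reads in those 4 libraries and 70000000 to 77100000 reads in the other pair. All 11 oligodendrocyte markers were detected, with a summed level of 515243 to 671684 normalized counts in WT and 705505 to 785837 in Qk-KO, but astrocyte, vascular and microglial markers were present too. All 9 hedgehog genes passed the minimum mean normalized count of 20, with means from 277 for Gas1 to 4894 for Ptch1. In the comparison of all 15153 tested genes, limma called 28.6% at an adjusted p under 0.05, and 32.9% of the 15056 genes with a value were called in the authors' deposited table. The hedgehog genes included 8 called genes in both, and since the contrast served to choose them nothing is read from that count. The number of all genes called dropped from 4330 to 2663 without WT replicate 1, to 2568 without WT replicate 3 and to 2370 without Qk-KO replicate 2.

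The Gli factors lay lowest of the 9 genes relative to WT. Gli1 (ENSMUSG00000025407.6, chromosome 10, 127329882 to 127341974, minus strand, mm10) had log2 values of 9.27, 9.04 and 8.97 in WT replicates 1, 2 and 3, against 5.90, 6.07 and 5.92 in Qk-KO replicates 1, 2 and 3. The groups were separated by a gap of 2.90, and the 3 Qk-KO values lay close together, with an SD of 0.09 against 0.16 in WT. The change was -3.13 ± 0.15 (SE), an 8.76-fold lower level and the 21st lowest change of the 15153 tested genes. Back-transformed, the regularized values corresponded to about 311, 253 and 225 reads in WT and about 37, 278 and 229 in Qk-KO. Regularization draws a gene with few reads closer to its average, and the authors' deposited table gives a larger change for Gli1, -4.20 ± 0.25 (SE). The read figures are therefore not counts, and are drawn down in WT and up in Qk-KO.

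Gli2 (ENSMUSG00000048402.14, chromosome 1, 118834132 to 119053619, minus strand), which acts mainly as an activator, had log2 values of 9.45, 9.28 and 9.19 in WT against 6.73, 6.74 and 6.26 in Qk-KO. Its groups were 2.45 apart, with Qk-KO replicate 3 the lowest library. The change was -2.73 ± 0.18 (SE), and -3.55 ± 0.26 in the authors' deposited table. Gli3 (ENSMUSG00000021318.15, chromosome 13, 15463235 to 15730026, plus strand), which is processed to a repressor when the pathway is off, had log2 values of 9.78, 10.05 and 10.12 in WT against 7.87, 7.40 and 6.68 in Qk-KO. The groups did not overlap, but Gli3 was the most variable of the 9 genes within Qk-KO, with an SD of 0.60 against 0.18 in WT, and Qk-KO replicate 1 was highest and replicate 3 lowest. Its change was -2.67 ± 0.28 (SE), and -3.11 ± 0.34 in the authors' deposited table. Of the 9 genes 4, the Gli factors and Boc, were lower by at least 2 log2 units, against 1.24% of all genes tested, a contrast that again served to choose them.

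The receptors differed in direction, with Ptch1 and Smo lower and Hhip higher in Qk-KO. Ptch1 (ENSMUSG00000021466.11, chromosome 13, 63508328 to 63573598, minus strand) had log2 values of 12.69, 12.70 and 12.49 in WT against 11.98, 11.60 and 11.28 in Qk-KO. The groups were separated by 0.51. Its change was -1.01 ± 0.18 (SE), a level in Qk-KO 0.497 times that in WT, and with library size alone as the scaling it turned to 0.05. That scaling counts ribosomal reads in the total and moves the median change of all tested genes up by 1.06, so Ptch1 was lower relative to the median gene under both. Smo (ENSMUSG00000001761.7, chromosome 6, 29735503 to 29761365, plus strand), the membrane protein that passes the signal on, had log2 values of 9.55, 9.59 and 9.39 in WT against 7.82, 8.01 and 8.58 in Qk-KO. The groups did not overlap, and Qk-KO replicate 3 was the highest Qk-KO library for Smo. The change was -1.38 ± 0.20 (SE).

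Hhip (ENSMUSG00000064325.3, chromosome 8, 79965851 to 80058006, minus strand), which binds and holds back hedgehog ligands, had log2 values of 10.61, 10.87 and 10.51 in WT against 11.46, 11.42 and 11.07 in Qk-KO. Every Qk-KO library lay above every WT library, by at least 0.20. The change was 0.65 ± 0.15 (SE), a 1.57-fold higher level, and 0.77 ± 0.21 in the authors' deposited table. Ptch1 and Hhip are both known as target genes of the pathway, and in these libraries their changes had opposite signs.

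**Figure D1:**
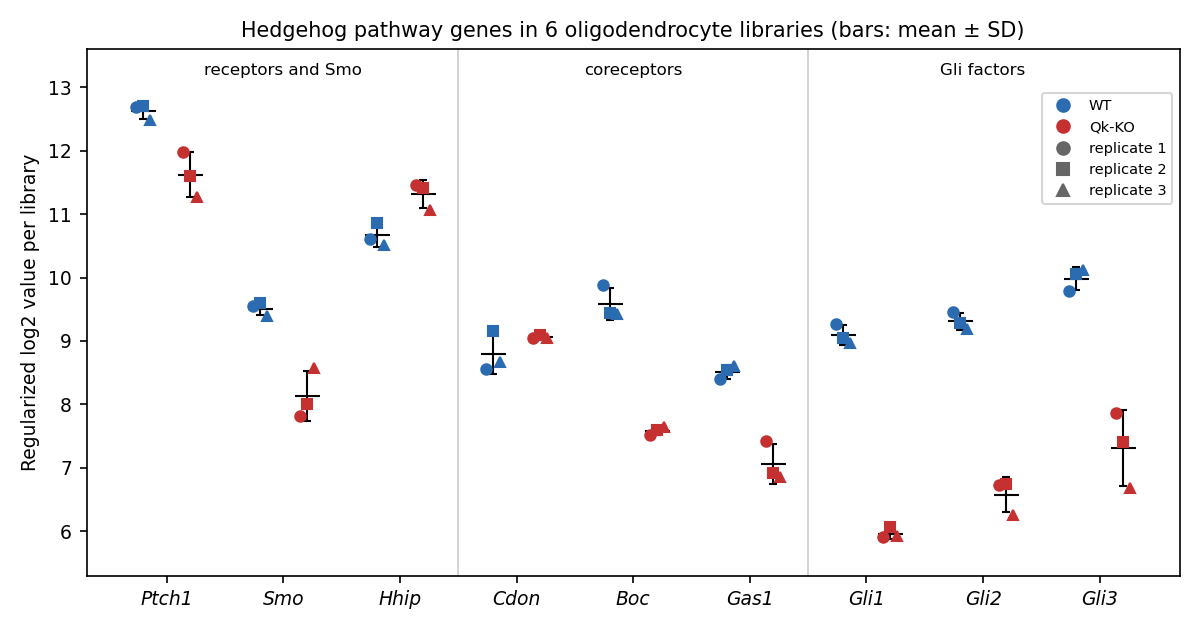
Regularized log2 value (vertical axis) of the 9 hedgehog genes for each of the 6 libraries (blue, WT; red, Qk-KO), with 1 symbol per replicate and the group mean ± SD in black. The groups do not overlap for 8 genes, with Gli1 at 5.90 to 6.07 in Qk-KO against 8.97 to 9.27 in WT, and they overlap for Cdon.

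Promoter windows of Ptch1, Hhip and Gli2 are shown because these genes differed in direction or size. Each is the 250 bases before the RefSeq start (GRCm38.p6), 5′ to 3′ on the gene's strand, with matches to the GC box GGGCGG on either strand in capitals.
Ptch1, chr13:63565736-63565985, minus strand: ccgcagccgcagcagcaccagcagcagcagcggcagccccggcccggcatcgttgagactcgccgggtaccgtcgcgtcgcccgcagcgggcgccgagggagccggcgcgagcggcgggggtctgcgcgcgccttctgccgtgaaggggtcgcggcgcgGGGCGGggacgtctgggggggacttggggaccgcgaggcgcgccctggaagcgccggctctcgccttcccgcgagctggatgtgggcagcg
Hhip, chr8:80058009-80058258, minus strand: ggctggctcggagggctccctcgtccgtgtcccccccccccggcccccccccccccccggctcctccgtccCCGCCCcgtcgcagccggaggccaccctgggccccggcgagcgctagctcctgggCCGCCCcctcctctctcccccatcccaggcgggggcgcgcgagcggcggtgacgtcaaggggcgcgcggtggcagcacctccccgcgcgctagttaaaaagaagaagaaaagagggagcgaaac
Gli2, chr1:119053620-119053869, minus strand: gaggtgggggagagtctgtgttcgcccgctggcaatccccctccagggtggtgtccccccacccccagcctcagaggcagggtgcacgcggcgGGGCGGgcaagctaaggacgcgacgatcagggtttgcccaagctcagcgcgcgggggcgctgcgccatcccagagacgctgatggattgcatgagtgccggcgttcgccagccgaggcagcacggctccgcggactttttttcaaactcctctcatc

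The windows of Ptch1, Hhip and Gli2 had a GC content of 78.4%, 76.0% and 67.2%, against a median of 52.4% over all 32851 windows of the table. A GC box was found 1, 2 and 1 times in them, and 32.7% of all windows hold at least 1. Windows were matched for 7 of the 9 genes, all but Gli1 and Boc. The windows of Ptch1, Cdon and Gli3 lie inside the gene spans of GENCODE M21, so they precede an internal start and not the outermost one. The Gli consensus GACCACCCA, searched on both strands, was in none of the 7 windows and is in 0.225% of all windows. Its core CCACCCA, which lies within the consensus, was in none of the 7 either and is in 8.11% of all windows. No match says only that these letters are not in this window.

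Among the coreceptors, Boc and Gas1 were lower and Cdon was not separated between the groups. Boc (ENSMUSG00000022687.11, chromosome 16, 44485049 to 44558897, minus strand), a cell surface protein that binds hedgehog ligands, had log2 values of 9.88, 9.44 and 9.43 in WT against 7.52, 7.59 and 7.64 in Qk-KO. The groups were 1.79 apart and the Qk-KO values were close together, with an SD of 0.06. The change was -2.003 ± 0.16 (SE), and -2.56 ± 0.23 in the authors' deposited table. Gas1 (ENSMUSG00000052957.7, chromosome 13, 60174405 to 60177365, minus strand), a membrane-anchored coreceptor, had log2 values of 8.40, 8.54 and 8.60 in WT against 7.42, 6.92 and 6.85 in Qk-KO. Qk-KO replicate 1 was the highest Qk-KO library and still 0.97 below the lowest WT library. The change was -1.45 ± 0.18 (SE), and -1.97 ± 0.29 in the authors' deposited table.

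Cdon (ENSMUSG00000038119.14, chromosome 9, 35421128 to 35507652, plus strand), the relative of Boc, had log2 values of 8.56, 9.16 and 8.67 in WT against 9.05, 9.10 and 9.04 in Qk-KO. The groups overlapped, since WT replicate 2 was the highest of all 6 libraries. The change was 0.27 ± 0.17 (SE), within the WT SD of 0.32. Counting all 9 genes, 7 were lower in Qk-KO without overlap and 1 was higher without overlap. Over all tested genes the groups did not overlap in the same 2 directions for 21.8% and 24.5%, 46.3% in all.

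The Qk-KO libraries were alike in direction for all 9 genes. Against the WT mean, Gli1 was at -3.19, -3.03 and -3.17 in Qk-KO replicates 1, 2 and 3, and Boc at -2.07, -1.99 and -1.95. In Qk-KO replicate 1, the Qk-KO library whose ribosomal share is like that of WT, Gli2 was at -2.58, Gli3 at -2.12, Smo at -1.69, Gas1 at -1.09, Ptch1 at -0.64, Cdon at 0.25 and Hhip at 0.80. Ptch1 (-1.35), Gli3 (-3.31) and Gas1 (-1.66) lay farthest below WT in Qk-KO replicate 3, whereas Smo was closest to WT there (-0.94). The sample numbers in the labels fall into 2 series whose meaning is not stated. The first holds WT replicate 1 with Qk-KO replicates 1 and 2, the second WT replicates 2 and 3 with Qk-KO replicate 3. Each series thus has a single library of one group. In the second, genotype and ribosomal share cannot be told apart. With each series taken alone every one of the 9 changes kept its sign. Gli1 was -3.29 in the first series and -3.08 in the second, Gli3 -2.15 and -3.41, Smo -1.63 and -0.92, and Hhip 0.83 and 0.38.

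**Figure D2:**
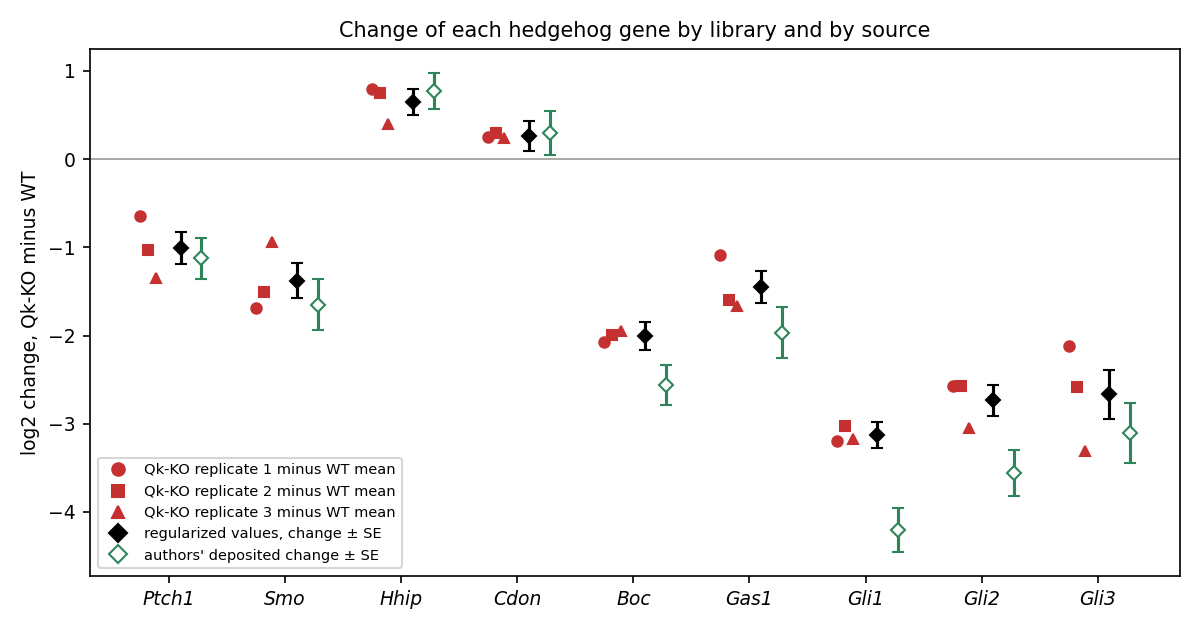
log2 change (vertical axis) of the 9 hedgehog genes: each Qk-KO library minus the WT mean (red symbols), the change ± SE from the regularized values (black) and the authors' deposited change ± SE (green). Gli1 is at -3.13 from the regularized values and -4.20 in the authors' table, and only Hhip and Cdon lie above 0.

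Levels can be compared between genes only per exon length, so the back-transformed values were divided by the length of the merged exons. In WT, Ptch1 had the highest level, 447 ± 36.3 normalized counts per kb (SD, n = 3). Hhip (180 ± 23.2) and Boc (175 ± 32.4) followed, with overlapping ranges. Smo (130.0 ± 9.23), Gas1 (123 ± 8.91), Gli1 (109.9 ± 12.3), Gli3 (106 ± 12.8) and Gli2 (92.7 ± 8.62) formed a continuous run in which each overlapped the next. Regularization draws these levels towards each gene's average, and not equally. The authors' deposited change was -4.20 for Gli1 against -3.13 here, and -1.65 for Smo against -1.38. The WT levels of genes that were lower in Qk-KO are drawn down, so the order within this run is not settled. Cdon was lowest at 58.7 ± 13.7, below the range of Gli2.

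In Qk-KO the order was different. Hhip was first with 283 ± 40.4 normalized counts per kb and Ptch1 second with 226 ± 55.6, and their ranges overlapped. Cdon, the lowest in WT, stood next with 69.3 ± 1.55, just above the highest library of Smo (51.3 ± 14.6). Gas1 (45.9 ± 10.5) and Boc (43.1 ± 1.87) overlapped with Smo and with each other. The Gli factors were last, Gli3 at 17.6 ± 6.85, Gli2 at 14.1 ± 2.53 and Gli1 at 12.5 ± 0.797, and their ranges overlapped. The authors' deposited table gives larger changes for the Gli factors than these regularized values do, so their Qk-KO levels lie closer to WT on this scale.

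**Figure D3:**
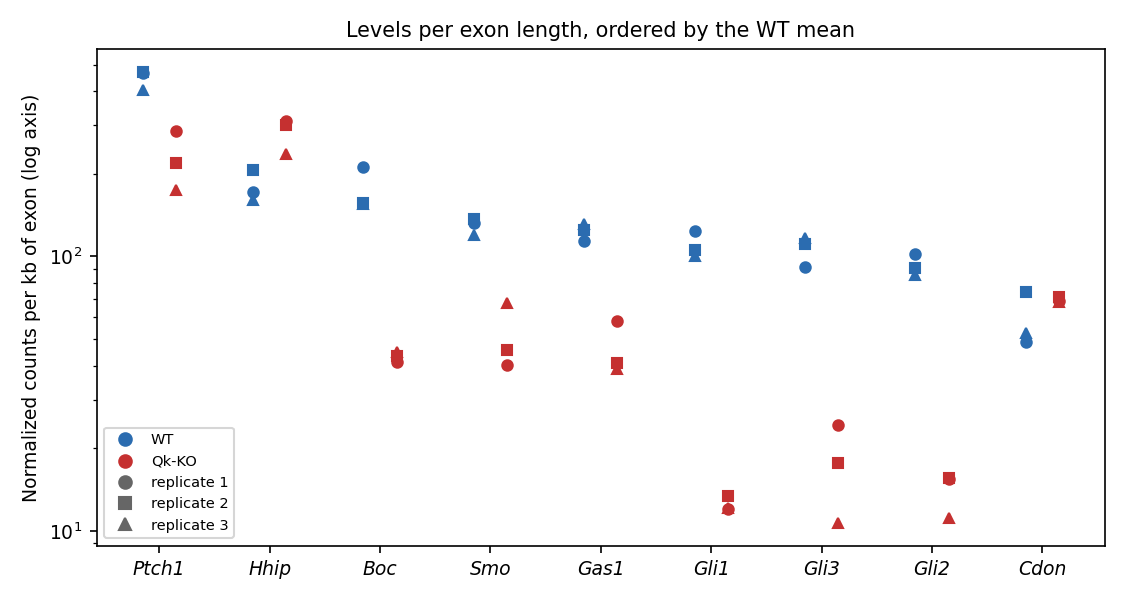
Normalized counts per kb of exon, back-transformed from regularized values (logarithmic vertical axis). The 9 hedgehog genes are ordered by the WT mean, with 1 symbol per library, blue for WT, red for Qk-KO. Ptch1 is highest in WT (447 on average) and Hhip in Qk-KO (283), and the Gli factors lie between 10.7 and 24.4 in Qk-KO.

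Markers of other cell types differed between the same libraries. Of 15 astrocyte markers 14 fell, against 14.8% of all tested genes called lower, with a median change of -2.64 against 0.03 over all tested genes. Their summed level was 152721 to 189907 normalized counts in WT and 22846 to 34609 in Qk-KO, and no marker was at 0. The glutamate transporter gene Slc1a2 (-2.48 ± 0.26, SE), the sodium pump subunit gene Atp1b2 (-3.92 ± 0.43) and the aldolase gene Aldoc (-2.38 ± 0.18) were among those that fell (limma adjusted p = 0.00053, 0.000617 and 0.000138). Gfap was the exception, with a change of 0.81 (limma adjusted p = 0.0526). It did pass the threshold in the authors' deposited DESeq2 comparison (adjusted p = 0.00873). The changes of Gli2 (-2.73) and Gli3 (-2.67) were close in size to the astrocyte median, and that of Gli1 (-3.13) was larger. Those of Boc, Gas1, Smo and Ptch1 were smaller, and those of Hhip and Cdon had the other sign. These sizes hold for the regularized scale, which draws genes in unequally. The authors' deposited changes were -4.20 for Gli1, -3.55 for Gli2 and -3.11 for Gli3. For the astrocyte markers Aqp4 and Slc1a3 they were -2.92 and -2.22, against -2.54 and -1.93 here. Set against the mean of the 15 astrocyte markers in the same library, Gli1 was at -3.69 to -3.28 in WT and -4.38 to -3.97 in Qk-KO, and Boc was at -3.28 to -2.67 in WT and -2.82 to -2.25 in Qk-KO. Gli2 was at -3.44 to -3.10 in WT and -3.68 to -3.55 in Qk-KO, and Gli3 at -2.77 to -2.32 and -3.21 to -2.41. Ptch1 was at -0.02 to 0.13 in WT and 1.19 to 1.70 in Qk-KO, and Hhip at -1.95 to -1.86 and 1.002 to 1.18. In bulk RNA, fewer cells of a type and less RNA per cell cannot be told apart, and the part of the astrocyte markers in the hedgehog changes was not tested.

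Blood vessel and connective tissue markers fell as well, against 14.8% of all tested genes called lower. All 8 endothelial markers fell (summed level 23098 to 33414 in WT and 13521 to 14484 in Qk-KO), with the VEGF receptor gene Flt1 at -1.10, Slco1a4 at -0.89 and the tight junction gene Cldn5 at -1.01. Of 6 mural cell markers 5 fell (14985 to 18061 and 8168 to 8873), with Rgs5 at -1.06, Vtn at -0.82 and Acta2 at -0.62. Of 5 fibroblast markers 4 fell (1290 to 2331 and 528 to 874), among them the collagen genes Col1a2 (-1.17) and Col1a1 (-1.88) and Dcn (-0.81). Of 9 oligodendrocyte precursor markers 2 fell (15967 to 28449 and 7405 to 17051), 22.2% against 14.8% of all tested genes called lower. Ptprz1 was one of them at -2.13, while Gpr17 (0.31) and Cspg4 (-0.44) did not pass the test. The median change of the 9 precursor markers was -0.14, and 7 of them were not called.

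Other marker lists were higher or mixed. Of 11 oligodendrocyte markers 6 rose, 54.5% against 13.8% of all tested genes called higher, including Mbp (1.07), and Cnp (0.54) did not pass the test. Of 10 microglia markers 3 rose (6854 to 11122 and 15498 to 55247), including C1qa (2.44), while Csf1r had a change of 1.05 (limma adjusted p = 0.0731). None of the 3 had an adjusted p under 0.05 in the authors' deposited table. Of 8 neuron markers 2 rose (1416 to 1615 and 1977 to 3850), against 13.8% of all tested genes called higher, including Tubb3 (1.51), and Snap25 (0.02) and Syt1 (0.25) did not pass. Of 5 ependymal markers 1, Rarres2 (-0.57), fell (642 to 1041 and 624 to 1080), and Foxj1 (-0.16) and Rsph1 (-0.13) did not pass. No marker in these lists was at 0, and their part in the hedgehog changes was not tested.

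The rest of the pathway was covered by 7 lists with 86 genes. Of these, 78 passed the minimum and 25 were called, 22 lower and 3 higher, a share of 32.1% against 28.6% of all tested genes. Their median change was -0.09, against 0.03 over all tested genes. With library size alone as the scaling 5 of them were called, 4 higher and 1 lower, and no call was left in the lists of ligand release, cilium or target genes.

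Ligands were scarce. Shh had no read in any library, which at the approximate depth of all 6 libraries allows a level of up to 0.0114 RPM, from a limit of 3 reads, counting error only. That depth includes ribosomal reads, and Qk-KO replicates 2 and 3 are the deepest libraries, so the WT libraries alone allow a higher level. Ihh had a mean normalized count of 3.12 and was below the minimum. Dhh was the only ligand gene tested, with log2 values of 4.67, 4.38 and 4.82 in WT against 4.72, 4.43 and 4.30 in Qk-KO (change -0.14 ± 0.17, SE, limma adjusted p = 0.579). No ligand gene passed the test in limma, at an unadjusted p either, or in the authors' deposited table. Of 6 tested genes of ligand acylation and release 2 fell, 33.3% called against 28.6% of all tested genes and 14.8% called lower. Disp1, which exports the lipid-modified ligand, had log2 values of 7.24, 7.07 and 7.22 in WT against 5.86, 5.98 and 6.24 in Qk-KO, with no overlap. It fell by 1.15 ± 0.16 (SE, limma adjusted p = 0.00186). Scube3, a secreted protein of the same step, fell by 0.62 (adjusted p = 0.0213), but its call was lost on leaving out Qk-KO replicate 2 (0.0906), WT replicate 1 (0.0736) or WT replicate 3 (0.0597) and in Qk-KO replicate 1 alone against WT (0.120), and its change was 0.43 with library size alone.

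Of 7 tested genes of other receptors and membrane regulators 3 fell, 42.9% called against 28.6% of all tested genes and 14.8% called lower. The glypican gene Gpc5 had log2 values of 10.28, 10.21 and 10.11 in WT against 7.65, 8.15 and 7.17 in Qk-KO. It fell by 2.54 ± 0.23 (SE, limma adjusted p = 0.000266). The glypican gene Gpc6, with a change of -1.66 ± 0.18, fell too (limma adjusted p = 0.000554). Glypicans are cell surface proteoglycans that can bind hedgehog ligands. Gpr161, a ciliary receptor that restrains the pathway, fell by 0.58 (adjusted p = 0.0190). Its call was lost on leaving out Qk-KO replicate 2 (0.0730), WT replicate 1 (0.0621) or WT replicate 3 (0.05996) or in Qk-KO replicate 1 alone against WT (0.0950), and its change was 0.48 with library size alone. With each library centred on its median, in the authors' deposited table and without Qk-KO replicate 1, 5 genes of this list were called, and with library size alone 1.

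The cytoplasmic machinery that controls the Gli proteins was mostly not called. Of 21 tested genes 1 fell and 2 rose, 14.3% against 28.6% of all tested genes, and 7 were called without Qk-KO replicate 1. The arrestin gene Arrb1 fell by 1.43 ± 0.23 (SE, limma adjusted p = 0.00321). The catalytic subunit gene of protein kinase A, Prkacb, rose by 0.90 ± 0.16 (adjusted p = 0.00494), with log2 values of 12.18, 11.64 and 12.11 in WT against 12.86, 12.87 and 12.89 in Qk-KO. Casein kinase 1 alpha, Csnk1a1, rose by 0.55 (adjusted p = 0.0129), but its call was lost on leaving out WT replicate 3 (0.0601) or Qk-KO replicate 2 (0.0658). Protein kinase A and casein kinase 1 phosphorylate Gli2 and Gli3 when the pathway is off.

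Of 22 tested genes of the primary cilium 4 fell, 18.2% against 28.6%. Among them were Evc and Evc2, whose products form a complex at the base of the cilium that relays the signal from Smo. Evc had log2 values of 7.76, 7.68 and 7.83 in WT against 6.65, 6.87 and 6.87 in Qk-KO and fell by 0.96 ± 0.15 (SE, limma adjusted p = 0.00248), with a change of 0.09 under library size alone. Evc2 fell by 1.19 ± 0.21 (adjusted p = 0.00450). Intu, a planar polarity effector needed for cilia, fell by 0.71 (adjusted p = 0.0109), with a change of 0.35 under library size alone. Tulp3, which brings receptors such as Gpr161 into the cilium, fell by 0.59 (adjusted p = 0.0238). Its call was lost without WT replicate 1 (0.0839), WT replicate 2 (0.0772), Qk-KO replicate 2 (0.0852) or Qk-KO replicate 3 (0.0510) and in Qk-KO replicate 1 alone against WT (0.2498), and its change was 0.46 with library size alone.

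Of 14 tested genes reported as Gli targets 7 fell, against 14.8% of all tested genes called lower. The count was 4 of 14 when Qk-KO replicate 2, WT replicate 1 or WT replicate 3 was left out. In these settings the lower calls among all 15153 tested genes dropped too, from 2243 to 1441, 1569 and 1520. The cyclin gene Ccnd2 had log2 values of 10.19, 10.33 and 10.10 in WT against 9.19, 8.72 and 8.80 in Qk-KO, with no overlap. It fell by 1.30 ± 0.15 (SE, limma adjusted p = 0.000823). The small GTPase gene Rab34 changed by -1.16 ± 0.15 (adjusted p = 0.00121), the survival gene Bcl2 by -1.31 ± 0.17 (0.00145) and the forkhead gene Foxf2 by -1.20 ± 0.17 (0.00178). Jag2, a Notch ligand (-0.67, limma adjusted p = 0.0245) and Sfrp1, a secreted Wnt inhibitor (-0.48, 0.0291), fell, with changes of 0.39 and 0.58 under library size alone. Jag2 lost its call on leaving out Qk-KO replicate 2 (0.0781), WT replicate 1 (0.0656) or WT replicate 3 (0.0684) or in Qk-KO replicate 1 alone against WT (0.0751). Sfrp1 lost its call on leaving out any single library other than Qk-KO replicate 1 (0.0651 to 0.0808). Endothelial and mural markers, given above, fell in the same libraries, and their part in the changes of the target genes was not tested.

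A list of 7 genes described as dependent on Smo in astrocytes or Bergmann glia was written from general knowledge, without a source. Of these 5 fell and 1 rose, 85.7% called against 28.6% of all tested genes, with 2 of the 7 called under library size alone. Aqp4 and Slc1a3 stand in the astrocyte marker list too, and fell, with changes of -2.54 ± 0.19 and -1.93 ± 0.17 (SE, limma adjusted p = 0.000127 and 0.000217). The glutamate receptor gene Gria1 (-1.78 ± 0.12), Lrig1 (-1.90 ± 0.12) and Sparc (-1.11 ± 0.17) fell as well (limma adjusted p = 8.73e-05, 8.73e-05 and 0.00246). Gria4 rose by 0.60 (0.0207), but its call was lost on leaving out Qk-KO replicate 2 (0.0764), WT replicate 1 (0.0671) or WT replicate 3 (0.0670) and in Qk-KO replicate 1 alone against WT (0.0699). Astrocyte markers fell in the same libraries, and their part in these changes was not tested.

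**Figure D4:**
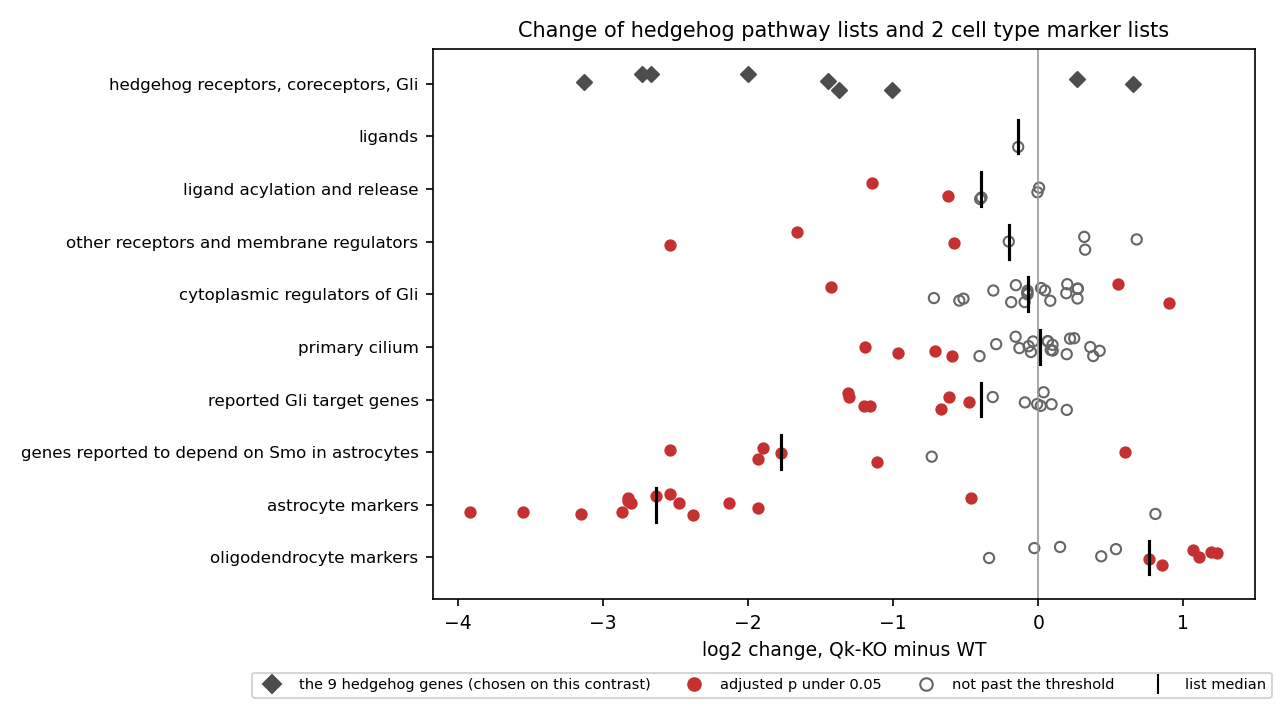
log2 change (horizontal axis) of the 9 hedgehog genes (grey diamonds), of 7 lists of other pathway genes and of astrocyte and oligodendrocyte markers, 1 point per tested gene, red where the limma adjusted p is under 0.05, open otherwise, with the list median as a black bar. The hedgehog genes run from -3.13 to 0.65, and the list medians from -2.64 for astrocyte markers to 0.76 for oligodendrocyte markers.

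The genes whose pattern over the 6 libraries was most like that of Gli1 were sought among 15152 tested genes by Pearson correlation of the log2 values, as a description that rests largely on the shared difference between the groups. The 5 closest named genes were Cyp4f17 (r = 0.99988, change -1.28), Paqr6 (0.99958, -2.12), the muscle glycogen phosphorylase gene Pygm (0.99955, -2.73), Spsb4 (0.99937, -1.42) and Psd2 (0.99936, -2.40). Pygm had log2 values of 11.05, 10.98 and 10.82 in WT against 8.16, 8.29 and 8.20 in Qk-KO. Among the hedgehog genes Boc (r = 0.995, rank 57) and Gli2 (r = 0.994, rank 76) were nearest to Gli1. Gli3 (r = 0.959), Gas1 (0.956), Smo (0.945) and Ptch1 (0.920) followed at ranks from 837 to 1481. Cdon (-0.596) and Hhip (-0.889) had negative values.

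Since quaking binds RNA at the sequence written ACTAAC or ACTAAT in DNA letters, the longest annotated 3′ UTR of each gene was searched for it on the transcribed strand. It was found in 3 of the 9 hedgehog genes, Hhip with 3 matches, Cdon with 2 and Ptch1 with 2, and 35.6% of 13218 tested genes hold at least 1. The 3′ UTRs of the 9 genes held 0.33 matches per kb, against 0.344 over all these genes. The 3′ UTRs of Gli1, Gli2, Gli3, Boc, Gas1 and Smo had no match and ranged from 165 bases for Gli1 to 3245 for Gli3. Those with a match were mostly longer, with 6480 bases for Hhip, 3432 for Cdon and 3205 for Ptch1. Whether the matches bear on the changes was not tested. The match nearest the stop codon is shown for each of the 3 genes, in capitals, 5′ to 3′ on the gene's strand (GENCODE M21, GRCm38), because these include the only 2 of the 9 genes with a change above 0.
Hhip, chr8:79968170-79968199, minus strand: acatatctgattACTAATatggcatagaac
Cdon, chr9:35504758-35504787, plus strand: ttccagaaaaacACTAATactgatttattt
Ptch1, chr13:63509446-63509475, minus strand: aaattgtaaggtACTAATtggaagccacct

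Values per gene do not separate transcripts or strands. In the annotation, exons of Gli1 overlap exons of Arhgap9 and Gm47200 on the opposite strand, and exons of Hhip, Gas1 and Gli3 overlap 1 unnamed gene model each on the opposite strand. Whether the counting used strand is not given in the sources used here, so reads of such partners cannot be told apart from those of the hedgehog genes.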

How the data were processed

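The submitters' processing notes list FastQC, TopHat2 2.0.14, featureCounts, DESeq2 and the build mm10. The sources used here give neither annotation release nor strandedness. The deposited table holds, per the file headers and its values, regularized log2 values per library, the authors' mean of normalized counts (a signal over the 6 libraries), and their comparison: a log2 change with its error, the Wald score, and p-values before and after adjustment. The values are not counts, so genotype was tested as the only term with limma 3.58.1 in R 4.3.3, trend option on, on these log2 values. The test took in features whose mean normalized count reached 20, and Benjamini-Hochberg adjusted p-values under 0.05 were called. Every adjusted p is limma's unless credited otherwise. The fit was tested on simulated data. The labels do not say that libraries are separate mice, so the p-values reflect library-to-library spread, which may be technical.

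Size factors came from the steps of the mean normalized count, which all 4125 features with a mean up to 1 matched within 1e-06. Approximate reads are back-transformed regularized values times size factor, so for a single gene they are drawn towards its average and are not counts. Lengths and coordinates are from GENCODE M21, matched by gene identifier, in which 46488 of 46983 identifiers were found. Promoters are from RefSeq (GRCm38.p6).

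The 9 genes and all lists were chosen with earlier results of these data known. Named genes were the 9; up to 6 called genes of each pathway list, lowest adjusted p first, with the 2 most abundant where fewer than 2 were called; the 3 most abundant of each marker list (some are not reported here); and the 5 most like Gli1. Genes named beside these for low reads (Shh, Ihh) or as an exception (Gfap) were chosen after their values were seen. Adrbk1 stood in for the symbol Grk2.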

Additional observations from a re-analysis of the deposited data

How the results depend on the processing

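Under the 16 other settings (2 other filters, 2 scalings, no trend, replicate block, library type, number series, Qk-KO replicate 1 alone, each library left out, and the authors' deposited comparison), the signs of the 9 hedgehog changes held except for Ptch1 with library size alone (0.0507). The number series was added after seeing the data. Of all genes, 4330 were called, 2447 with library size alone (97.3% of them higher, against 48.2%), 2258 with library type in the model, 2355 with Qk-KO replicate 1 alone against WT, in which that library is assumed to vary like WT, and 2370 to 5633 with 1 library left out. Of the other pathway genes 25 were called, 5 with library size alone and 17 to 34 with 1 library left out. Library size alone turned Scube3 (0.43), Gpr161 (0.48), Evc (0.0942), Intu (0.35), Tulp3 (0.46), Jag2 (0.39) and Sfrp1 (0.58), by its construction a shift of all genes. It also ended the calls of Disp1, Gpc5, Gpc6, Arrb1, Evc2, Ccnd2, Rab34, Bcl2, Foxf2, Gria1, Lrig1, Slc1a3 and Sparc. Replicates share only numbers in the labels. Deviations of same-numbered libraries correlated at 0.104, 0.0046 and 0.0821, and those of differently numbered libraries at -0.1207 to 0.0577. These values do not settle whether libraries were paired. The replicate block gave 4345 calls and 25 pathway calls. Depth limits Gli1 most, at about 37 reads in Qk-KO replicate 1 by the regularized value, which is drawn up there.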
